A study of Sus scrofa with 6 samples.

Results

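The genes described here encode 3 components of elastic fibres: FBN1 (fibrillin-1), MFAP2 (microfibril-associated protein 2) and LOXL1 (lysyl oxidase-like 1). Their probe sets were chosen by gene symbol in the platform annotation of the pig expression array, which gave 4 probe sets, 2 for FBN1 and 1 each for MFAP2 and LOXL1, among 10069 probe sets with 1 symbol and 6765 symbols in all. The 3 genes were themselves selected from earlier results of the same arrays for their low values in induced pluripotent stem (iPS) cell lines relative to somatic cells. Their values in that comparison are therefore a description and carry no test.

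RNA of 6 pig (Sus scrofa) cell samples was measured, each on 1 Affymetrix Pig Genome Array. The 4 iPS lines differ in the stage-specific embryonic antigens (SSEA, surface glycans used as stem cell markers) that their labels list. PS24 is labelled positive for SSEA1, SSEA3 and SSEA4 and 30AC5 for SSEA1, and both are called SSEA1-labelled here. The labels of iPF4-2 and iPSCs-w list SSEA3 and SSEA4 only. The 2 somatic samples are PEF, an embryo fibroblast culture, and PAFSC, amniotic fluid stem cells. All samples share a serum-containing DMEM medium, and the iPS lines grew on inactivated mouse embryonic fibroblasts. The sources used here name neither the reprogramming factors nor the donor cells and animals behind each line. Nothing states that any line was cultured or hybridised more than once, so the spread between samples is a spread between different lines.

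Elastic fibres give skin, lung and arteries their recoil. Cells first lay down microfibrils, bead-like filaments built of fibrillins with associated glycoproteins such as MFAP2, and elastin is then deposited on them and cross-linked by the copper enzymes of the lysyl oxidase family, LOXL1 among them. Fibroblasts and smooth muscle cells are the main producers, and microfibrils also hold TGF-beta in its latent form. Variants of human FBN1 cause Marfan syndrome.

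The deposited table gives log2 values, centred for each probe set on a baseline that the sources used here do not state. A value can be compared between arrays for 1 probe set, and no level can be compared between genes. The PAFSC array stood apart from the rest. The standard deviation (SD) over its 23999 probe sets was 2.01, against 0.610 to 0.729 on the iPS arrays and 0.808 on the PEF array, and its median was 0.70, against -0.06 to 0.05 on the others. The 5' minus 3' value of the control genes GAPDH, actin and EF1A averaged -1.90 on the PS24 array and 1.90 on the PAFSC array, and lay between -0.03 and 0.19 on the other 4. Hybridisation controls averaged -1.25 on the iPSCs-w array, 1.39 on PAFSC and -0.05 to 0.80 elsewhere. Differences from PEF alone are therefore given for FBN1, MFAP2 and LOXL1 and for many of the other genes named.

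FBN1, the fibrillin that forms the backbone of microfibrils, was lower in all 4 iPS lines than in either somatic sample on both of its probe sets. Probe sets of 1 gene are numbered here in the order of their identifiers. On the first probe set it was 1.25 (PS24), -1.00 (30AC5), -0.07 (iPF4-2) and -2.10 (iPSCs-w), against 2.73 in PEF and 5.10 in PAFSC. On the second it was 1.02 (PS24), -1.01 (30AC5), 0.02 (iPF4-2) and -3.38 (iPSCs-w), against 2.75 in PEF and 2.42 in PAFSC. The 2 probe sets ordered the lines alike, with PS24 highest, then iPF4-2, 30AC5 and iPSCs-w. They gave nearly the same values in PEF, PS24, 30AC5 and iPF4-2, and they parted in PAFSC and in iPSCs-w. The iPS mean of -0.48 ± 1.42 (SD, n = 4) on the first probe set was 9.25-fold lower than PEF and 48.0-fold lower than PAFSC. On the second, the iPS mean of -0.84 ± 1.89 (SD, n = 4) was 12.0-fold lower than PEF and 9.53-fold lower than PAFSC. The size of the FBN1 difference from PAFSC thus depended on the probe set.

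MFAP2, a small glycoprotein that binds fibrillin along the microfibril, was the most even of the 3 across the iPS lines. It was -1.15 (PS24), -1.38 (30AC5), -0.81 (iPF4-2) and -1.00 (iPSCs-w), against 2.02 in PEF and 1.82 in PAFSC. The iPS values spanned 0.57 log2 units, and the highest of them lay 2.64 below the lower somatic sample. The iPS mean of -1.08 ± 0.24 (SD, n = 4) was 8.60-fold lower than PEF and 7.51-fold lower than PAFSC.

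LOXL1, which oxidises lysines of elastin precursors so that they can be cross-linked, had the widest separation. It was -1.76 (PS24), -1.63 (30AC5), -2.02 (iPF4-2) and -2.96 (iPSCs-w), against 3.03 in PEF and 1.70 in PAFSC. The gap between the highest iPS line and the lower somatic sample was 3.33 log2 units, the largest among the 4 probe sets. The iPS mean of -2.10 ± 0.60 (SD, n = 4) was 34.9-fold lower than PEF and 13.9-fold lower than PAFSC.

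**Figure D1:**
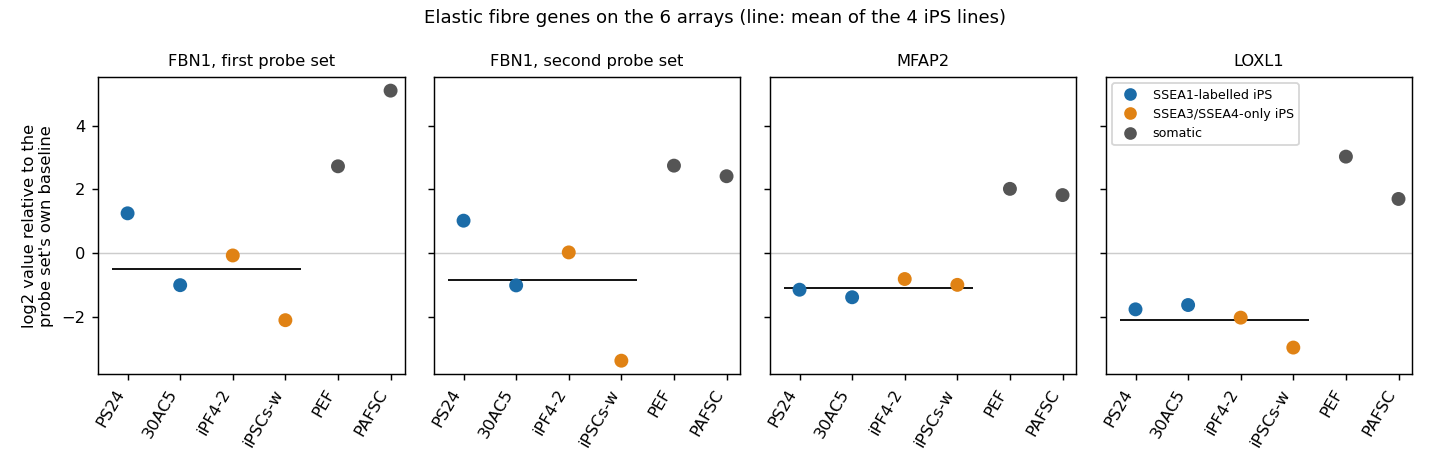
Log2 values of the 4 probe sets (y axis, relative to each probe set's own baseline) on the 6 arrays, with the iPS lines left of the somatic samples. Points are single arrays, the black line is the mean of the 4 iPS lines, and on every panel the iPS points lie below both somatic points, by 1.40 to 3.33 log2 units at the nearest.

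On all 4 probe sets each iPS line lay below both somatic samples, as did 9.99% of all probe sets. Since the genes were selected on this contrast, nothing is read from that share. Over the 4 probe sets the mean iPS minus somatic difference ran from -4.46 for LOXL1 and -4.40 for the first FBN1 probe set to -3.42 for the second FBN1 probe set and -3.01 for MFAP2. The median difference over all 23999 probe sets was -0.34 with the deposited scale, and -0.04 once each array was centred on its median.

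The place of the genes within the PAFSC array differed. On the PEF array the 4 probe sets stood at percentiles 97.3 to 99.0 of all probe sets, ranked by their values relative to baseline. On the PAFSC array FBN1 was also near the top, at percentile 99.9 on the first probe set and 92.7 on the second, whereas MFAP2 stood at 77.5 and LOXL1 at 73.7, next to that array's upper quartile of 1.74. Most leukocyte and endothelial markers, of cell types that neither somatic label names, were also high there, each relative to its own baseline. Of 6 leukocyte marker probe sets, which ranged from -1.07 to 2.99 in PAFSC, 0 had a higher value than the first FBN1 probe set, 2 than the second, 3 than MFAP2 and 3 than LOXL1. Of 15 endothelial probe sets, 1 was higher than the first FBN1 probe set (ERG, at 5.59), 2 than the second, 8 than MFAP2 and 11 than LOXL1. In PEF 0 of the leukocyte probe sets and 1 of the endothelial ones, ERG, were higher than each of the 4. PTPRC, the pan-leukocyte antigen CD45, was -0.02 to 0.18 in the iPS lines, -0.04 in PEF and 2.56 in PAFSC. AIF1, on the same list, went the other way, at -1.07 in PAFSC, 3.87 in iPF4-2 and 3.74 in iPSCs-w. It was -1.63 in PS24, -1.86 in 30AC5 and -1.65 in PEF. The leukocyte probe sets summed to 9.95 in PAFSC and -2.75 in PEF. In the iPS lines they summed to -0.15 (PS24), -1.11 (30AC5), 5.14 (iPF4-2) and 3.88 (iPSCs-w). The counts and sums here rest on departures from separate baselines and compare no levels. The part of the PAFSC array's scale in its FBN1, MFAP2 and LOXL1 values was not tested.

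**Figure D2:**
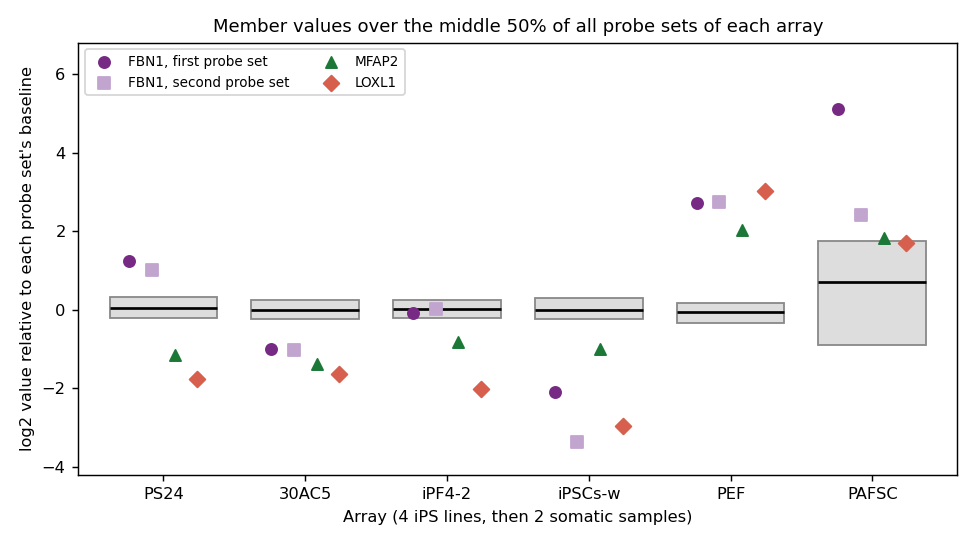
Values of the 4 probe sets (symbols, log2 relative to baseline) drawn over the middle 50% of all 23999 probe sets of each array (grey box, black line at the median), with the iPS arrays left of the somatic ones. In PEF all 4 symbols stand clear of the box, and in PAFSC the MFAP2 and LOXL1 symbols lie at its upper edge of 1.74.

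The FBN1 values were more widely spread over the iPS lines than those of MFAP2 and LOXL1, with no test of that difference. On the PS24 array FBN1 stood at percentiles 97.0 and 95.7, above that array's upper quartile of 0.33, and on iPF4-2 at 35.7 and 50.5, close to the middle. On 30AC5 it was at 3.45 and 3.38 and on iPSCs-w at 1.25 and 0.33. MFAP2 was between percentiles 1.54 and 5.33 and LOXL1 between 0.55 and 1.42 on all 4 iPS arrays. Ranked by the SD across the iPS lines, the FBN1 probe sets exceeded 96.7% and 98.6% of all probe sets, LOXL1 79.1% and MFAP2 32.1%. Relative to its baseline FBN1 was therefore not uniformly low in the iPS lines: it was 1.25 and 1.02 in PS24, while MFAP2 and LOXL1 were negative there. The baselines are not stated, so these signs and percentiles compare no levels between genes. PS24 still lay 1.48 and 1.40 log2 units below the lower somatic sample on the 2 FBN1 probe sets. By percentile PS24 exceeded PAFSC on the second FBN1 probe set (95.7 against 92.7), so on that scale 3 and not 4 lines were below both somatic samples. The PS24 array is also the one with the low 5' signal in control genes, and its part in the FBN1 value was not tested. Each line has 1 array, so no spread within a line is available to separate neighbours in these orders.

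The genes were not chosen on the difference between the marker classes. They were chosen on values of these same arrays, which also set the spread of this fit, so the comparison is not fully independent of the choice. The spread is pooled over 3 classes, so the difference between PEF and PAFSC enters each SE, interval and p-value of the class differences. With only the 4 iPS lines the limma adjusted p was 0.548 for LOXL1 and up to 0.754 for the others. FBN1 averaged 0.12 in the SSEA1-labelled lines and -1.09 in the SSEA3/SSEA4-only lines on the first probe set, a difference of 1.21 (SE 1.15, 95% interval -1.45 to 3.87, limma adjusted p = 1.00). On the second probe set the averages were 0.00 and -1.68, a difference of 1.68 (SE 1.17, 95% interval -1.04 to 4.40, limma adjusted p = 1.00). The classes overlapped on both, because 30AC5 lay below iPF4-2. LOXL1 averaged -1.70 in the SSEA1-labelled lines and -2.49 in the SSEA3/SSEA4-only lines, a difference of 0.80 (SE 0.72, 95% interval -0.88 to 2.48, limma adjusted p = 1.00), and both SSEA1-labelled lines were above both others, as for 21.0% of all probe sets. MFAP2 averaged -1.27 in the SSEA1-labelled lines and -0.90 in the SSEA3/SSEA4-only lines, a difference of -0.36 (SE 0.60, 95% interval -1.75 to 1.03, limma adjusted p = 1.00), with both SSEA1-labelled lines below both others, as for 20.2% of all probe sets. Limma called 0 of the 4 at an adjusted p under 0.05 and 0 at an unadjusted p under 0.05, where 2.84% of all probe sets had such an unadjusted p and 0% such an adjusted one. The intervals still allow differences of more than 2 log2 units for FBN1 and LOXL1. The size of the FBN1 and LOXL1 differences moved with single lines. The first FBN1 difference was 0.083 without PS24, 0.20 without iPSCs-w, 2.34 without 30AC5 and 2.23 without iPF4-2. The second was 0.66 without PS24, -0.020 without iPSCs-w, 2.70 without 30AC5 and 3.38 without iPF4-2. The LOXL1 difference was 0.33 without iPSCs-w and 1.27 without iPF4-2, and that of MFAP2 ran from -0.48 to -0.24.

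**Figure D3:**
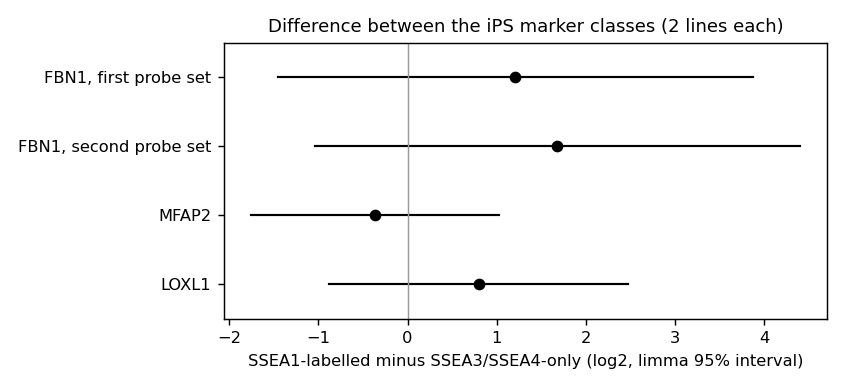
SSEA1-labelled minus SSEA3/SSEA4-only differences (x axis, log2) of the 4 probe sets, with limma 95% intervals as bars and 2 lines in each class. All 4 intervals cross 0, from -1.75 to 1.03 for MFAP2 up to -1.04 to 4.40 for the second FBN1 probe set.

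Summed values of marker lists for other cell states are given beside these, with no test of the lists between the classes. The pluripotency markers (4 of 10 listed genes measured, 4 probe sets) summed to -1.65 (PS24) and -1.86 (30AC5), against 7.65 (iPF4-2) and 8.94 (iPSCs-w). Their sums were -2.17 in PEF and 2.79 in PAFSC, so both SSEA1-labelled lines lay between the somatic samples. The epithelial markers (15 probe sets of 10 genes) summed to -2.91 and 10.6, against 18.4 and 28.2, and to -11.5 in PEF and 5.89 in PAFSC. The gene of the pluripotency factor OCT4, POU5F1, stood at 0.07 (PS24) and -0.07 (30AC5), and at 3.68 (iPF4-2) and 3.61 (iPSCs-w), against -0.50 in PEF and 1.09 in PAFSC. The part of these cell states in the FBN1 values was not tested.

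Of 77 elastic fibre pathway genes listed by role, 41 had a probe set named by 1 symbol. Apart from FBN1, MFAP2 and LOXL1 these were 38 genes with 67 probe sets. The list was drawn up with earlier results of these arrays known. Elastin itself, the latent TGF-beta binding proteins and FBN2 were not analysed here. The mean of the iPS lines was lower than that of the somatic samples on 60 of the 67 probe sets (89.6%, against 60.9% of all probe sets), with a median difference of -1.29, against -0.34 over all. Each iPS line lay below both somatic samples on 30 of the 67 (44.8%, against 9.99% of all), and on 0 of the 67 above both. None passed the test over all probe sets: limma called 0 of 67 at an adjusted p under 0.05, where it called 0.0250% of all, and 0.0167% as lower. At an unadjusted p under 0.05 it gave 26, all lower in the iPS lines, where 5.40% of all probe sets were lower at that level. The test set 4 lines against 2 samples, and the difference between those 2 enters the spread it used. Few arrays and that difference both limit what the test can call, and their parts were not tested. In bulk samples fewer cells that make a transcript and less transcript per cell cannot be told apart.

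Of the other 5 listed microfibril genes 2 were measured, MFAP5 and MFAP3. MFAP5, a glycoprotein related to MFAP2, was -0.50 (PS24), -0.39 (30AC5), 0.69 (iPF4-2) and -0.42 (iPSCs-w), against 0.35 in PEF and 1.57 in PAFSC. Its difference of -1.11 (SE 0.58, limma adjusted p = 0.414) did not pass. In 3 of the 4 lines it was below both somatic samples, and iPF4-2 was above PEF. MFAP3, a membrane protein found with microfibrils, was -0.08, -0.47, -0.11 and 0.26 in the lines in that order, against -0.20 in PEF and -1.11 in PAFSC. On 0 of these 2 probe sets was every line below both somatic samples.

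Among the fibulins and emilins measured, 5 of 6 probe sets were below both somatic samples in every line, where 9.99% of all probe sets were. EFEMP2 (fibulin-4), which links lysyl oxidase to the elastin precursor, had 3 probe sets, all among these 5. On the first it was 0.34 (PS24), 0.38 (30AC5), -1.04 (iPF4-2) and -1.10 (iPSCs-w), against 3.20 in PEF and 3.27 in PAFSC. The difference was -3.58 (SE 0.61, limma adjusted p = 0.127), and the other 2 probe sets gave -3.54 and -2.05. FBLN1 (fibulin-1), a protein of elastic fibres and basement membranes, was -0.10 to 0.52 in the lines, against 1.74 in PEF and 1.93 in PAFSC. EMILIN2, a glycoprotein of the elastin-microfibril interface family, had 2 probe sets, with iPS minus somatic differences of -1.46 and -0.84. On the first of these the PAFSC value of -1.20 lay within the iPS range of -2.65 to -0.17.

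Of the other lysyl oxidases LOX and LOXL4 had probe sets named here, and no difference between them and LOXL1 was tested, since LOXL1 was chosen on this contrast. LOX, the founding member, was -1.00 (PS24), -0.39 (30AC5), -0.17 (iPF4-2) and -1.32 (iPSCs-w) on its first probe set, against 1.49 in PEF and 1.61 in PAFSC. That probe set differed by -2.27 (SE 0.52, limma adjusted p = 0.193) and the second LOX probe set by -0.17 (SE 0.55, limma adjusted p = 0.850), so the 2 disagreed. Against PEF alone they gave -2.21 and 0.51. LOXL4 differed by -1.03, -0.56 and -1.29 on its 3 probe sets, none of them with every line below both somatic samples, and by 0.041, 0.25 and -2.07 from PEF alone. BMP1, the protease that activates lysyl oxidase precursors, differed by -1.65 and -3.01, with every line below both somatic samples on each, and by -1.57 and -1.73 from PEF alone. ATP7A, the copper pump that loads secreted copper enzymes, differed by -1.23 and -0.21, and its PEF values of -0.18 and -0.20 lay below all 4 lines. SERPINH1, the collagen chaperone HSP47, stood at 0.60 (PS24) and 1.28 (30AC5) in the SSEA1-labelled lines, against -0.88 (iPF4-2) and -3.20 (iPSCs-w) in the others. Its class difference of 2.98 (SE 1.09, limma adjusted p = 1.00) was the largest among the 71 elastic fibre probe sets, and limma called 0 of the 71 between the classes.

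TGF-beta ligands, which microfibrils store, showed separate patterns. TGFB3 was 0.23 (PS24), -0.32 (30AC5), -0.02 (iPF4-2) and -0.01 (iPSCs-w), against 2.76 in PEF and 2.66 in PAFSC, on the first of its probe sets. Its difference was -2.74 (SE 0.45, limma adjusted p = 0.119), and the second gave -0.91. TGFB2 was high in one line: on the first of its 4 probe sets it was 2.72 in iPSCs-w, and -0.05, -0.30 and 0.12 in PS24, 30AC5 and iPF4-2, against 3.04 in PEF and -0.70 in PAFSC. Its other 3 probe sets were 1.85, 0.42 and 2.29 in iPSCs-w and between -0.88 and 0.13 in the other lines. TGFB1 differed by -0.37 and -0.17, and by -0.11 and -0.23 from PEF alone.

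Integrins bind fibrillin and the latent TGF-beta complexes at the cell surface. ITGA8 was -0.54 (PS24), -0.58 (30AC5), -0.57 (iPF4-2) and -0.81 (iPSCs-w) on the third of its 3 probe sets, against 4.05 in PEF and 1.10 in PAFSC. They differed by -2.42, -3.39 and -3.20. ITGB3, a partner of integrin alpha-V, differed by -2.08 (SE 0.66, limma adjusted p = 0.297) and by -3.16 from PEF alone. ITGA5, a fibronectin receptor subunit, differed by -2.06 and -1.18, and by -2.04 and -0.55 from PEF alone. ITGAV, the alpha-V subunit, was -0.25 to 0.51 in the lines, against 1.54 in PEF and -0.59 in PAFSC, and its direction depended on the somatic sample. The same held for ITGB1, the shared beta subunit, at -0.18 to 0.68 in the lines, against 1.10 in PEF and -3.72 in PAFSC.

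Of 16 probe sets for proteases that degrade elastin or matrix and for their inhibitors, 7 lay below both somatic samples in every line, where 9.99% of all probe sets did. TIMP3, an inhibitor bound to the matrix, was -0.49 (PS24), 0.07 (30AC5), 0.32 (iPF4-2) and -0.30 (iPSCs-w) on the third of its probe sets, against 3.59 in PEF and 5.42 in PAFSC. It differed by -4.60 (SE 0.61, limma adjusted p = 0.0805), the smallest adjusted p of the 67. The first TIMP3 probe set differed by -1.50, and by -0.26 from PEF alone, with iPSCs-w above PEF (0.38 against 0.29). The second differed by -5.41, with PAFSC at 8.20, and by -2.48 from PEF alone. The first TIMP2 probe set differed by -2.31 and the second by -2.93 (SE 0.51, limma adjusted p = 0.133), and from PEF alone they differed by -4.31 and -2.54. MMP14, a membrane-bound metalloprotease, was -0.50 to 0.50 in the lines, against 1.93 in PEF and 3.07 in PAFSC, a difference of -2.57. MMP2, a gelatinase, differed by -1.32, and by -1.64 from PEF alone. CTSK, an elastin-cleaving cathepsin, was -1.93 to 0.31 in the lines, against -0.07 in PEF and -2.90 in PAFSC. Among scaffold partners of microfibrils, DCN (decorin) differed by -5.39 (SE 1.02, limma adjusted p = 0.151) on the first of its 2 probe sets, and by -4.14 from PEF alone. On the second it was -0.019 to 0.12 in the lines, against -0.17 in PEF and 10.7 in PAFSC, so its difference of -5.21 came from PAFSC and that from PEF was 0.22. BGN (biglycan) was -0.95 to 0.47 in the lines, against 4.03 in PEF and 1.83 in PAFSC. FN1, fibronectin, on which fibrillin assembly depends, was 0.42, -0.67, 0.86 and -2.86 in PS24, 30AC5, iPF4-2 and iPSCs-w, against 4.59 in PEF and 0.88 in PAFSC, on the fourth of its probe sets. There iPSCs-w was the lowest line, as it was for FBN1. That probe set had the largest of 4 FN1 differences, -3.30, and the others gave -1.24, -1.45 and -0.98. VCAN (versican), a proteoglycan that binds fibrillin, differed by -1.51, -1.39, 0.11, 0.31 and -2.01 on its 5 probe sets, and by -0.96, 0.39, -1.79, -1.50 and -1.24 from PEF alone.

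**Figure D4:**
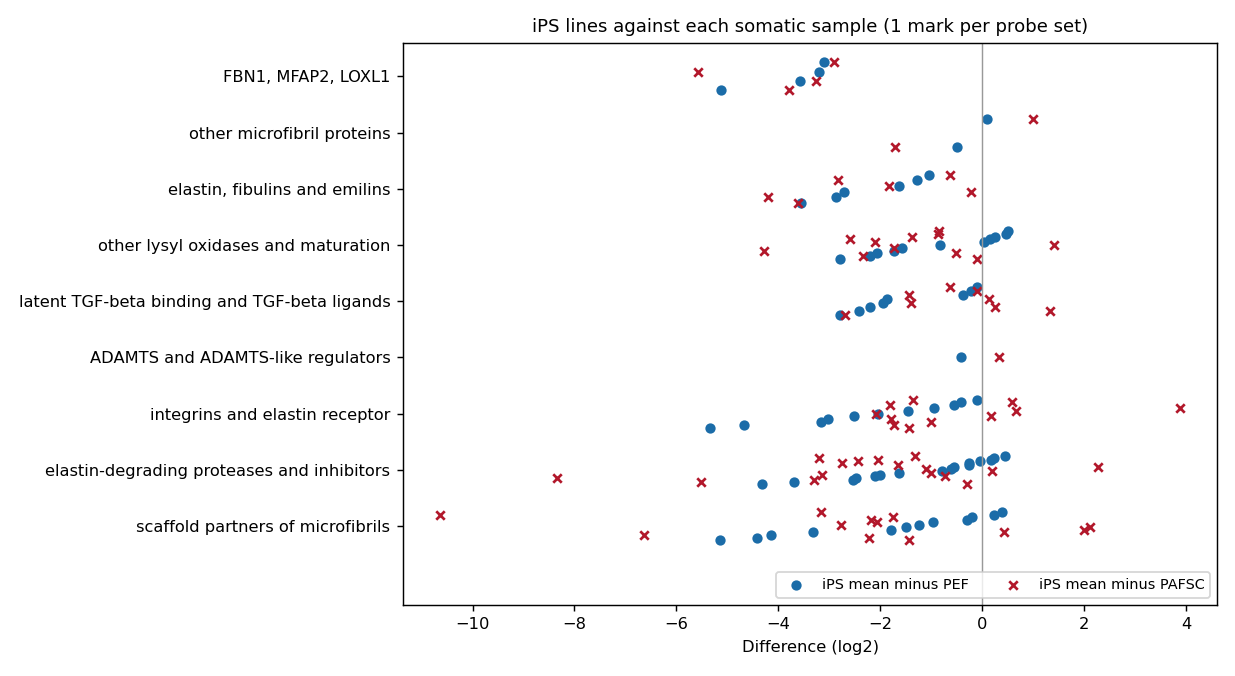
Mean of the 4 iPS lines minus PEF (blue dots) and minus PAFSC (red crosses), in log2 units on the x axis, for each probe set of the role lists on the y axis. The FBN1, MFAP2 and LOXL1 marks lie between -5.59 and -2.91 for both somatic samples, and in the other lists the 2 kinds of mark fall on different sides of 0 for some probe sets.

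Against PEF alone, with PAFSC left out, limma called 5 of the 67 other probe sets, all lower in the iPS lines, where it called 0.513% of all probe sets lower. Against PAFSC alone it called 39 of the 67 lower, where 38.9% of all probe sets were called lower. In each of these fits the lone somatic array is assumed to vary like the iPS lines. The probe sets called against PEF alone belonged to ITGA8 (-5.34 and -4.67), TIMP3 (-3.69 and -2.48) and TGFB3 (-2.79). The remaining probe set of each gene differed from PEF by -3.04 (ITGA8), -0.26 (TIMP3) and -0.37 (TGFB3). The mean was lower than PEF on 56 of the 67 (83.6%, against 38.6% of all probe sets), with a median of -1.46, against 0.13 over all probe sets. Every line lay below PEF on 44 of the 67 (65.7%), as for 19.1% of all. FBN1, MFAP2 and LOXL1 were selected on a contrast that holds PEF, so their differences from PEF, -3.21 and -3.58, -3.10 and -5.13, carry no test.

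Lists of fibroblast and of contractile markers are set beside these values. The fibroblast and mesenchymal markers (23 probe sets of 12 genes out of 15 listed) summed to -16.6 to 3.80 in the iPS lines, against 61.9 in PEF and 63.1 in PAFSC, with 1 of 23 called lower by limma, that of S100A4, where it called 0.0167% of all probe sets lower. On 14 of the 23 every line was below both somatic samples, where 9.99% of all were. The smooth muscle and contractile markers (15 probe sets of 8 genes out of 9) summed to -21.6 to -0.79 in the lines, against 31.0 in PEF and 22.4 in PAFSC, with 0 of 15 called by limma and 11 of 15 below both somatic samples. The part of these cell type differences in the elastic fibre values was not tested.

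The genes with the most similar profile were taken as those with the smallest root mean square distance over the 6 arrays, after each probe set was centred on its own mean. For MFAP2 they lay very close. IGFBP5, an insulin-like growth factor binding protein, was nearest at 0.18 log2 units, followed by TGFB3 at 0.22, PKDCC, a secreted kinase, at 0.25, the collagen gene COL1A2 at 0.31 and the collagenase gene MMP1 at 0.32. For LOXL1 the nearest was THBS1, the matricellular thrombospondin-1, at 0.40, then FAM198B at 0.57, PTX3, a secreted pentraxin, at 0.57, COL5A1, a fibrillar collagen, at 0.67 and EFEMP2 at 0.68. Within the list of 38 pathway genes these were TGFB3 and EFEMP2.

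The nearest profiles to FBN1 lay at larger distances, a measure that grows with the spread of a profile. For its first probe set they were IGFBP6 at 0.73, ERG, an endothelial transcription factor, at 0.79, CCDC80, a matrix protein, at 0.80, MAP2, a microtubule protein, at 0.80 and BMP1 at 0.93. For its second they were CCDC80 at 0.56, MAP2 at 0.69, EGR1, an immediate early transcription factor, at 0.72 and 0.94 on 2 probe sets, and ZNF618 at 0.90. The Pearson correlation of these neighbours was 0.946 to 0.987 for the first probe set and 0.913 to 0.964 for the second. For the neighbours of LOXL1 it was 0.951 to 0.986, and for those of MFAP2 0.976 to 0.992. CCDC80 was 1.50 (PS24), -0.03 (30AC5), 0.03 (iPF4-2) and -2.99 (iPSCs-w), against 2.29 in PEF and 3.63 in PAFSC, so its lines stood in the same order as those of FBN1. The 2 FBN1 probe sets were at a distance of 1.01 from each other over 6 arrays, and at 0.51 without PAFSC. LOXL1 ranked at place 350 of 10068 among the profiles nearest to MFAP2, and MFAP2 at place 36 of 10068 among those nearest to LOXL1. By Pearson correlation these places were 58 and 65. The first and second FBN1 probe sets stood, by distance, at places 4649 and 4158 for MFAP2 and at 179 and 97 for LOXL1. Among the profiles nearest to those 2 probe sets, MFAP2 was at 70 and 110 of 10067 and LOXL1 at 42 and 29. Closeness of profiles over 6 arrays is a description, and many probe sets share the low values in iPS lines and the high PAFSC scale.

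**Figure D5:**
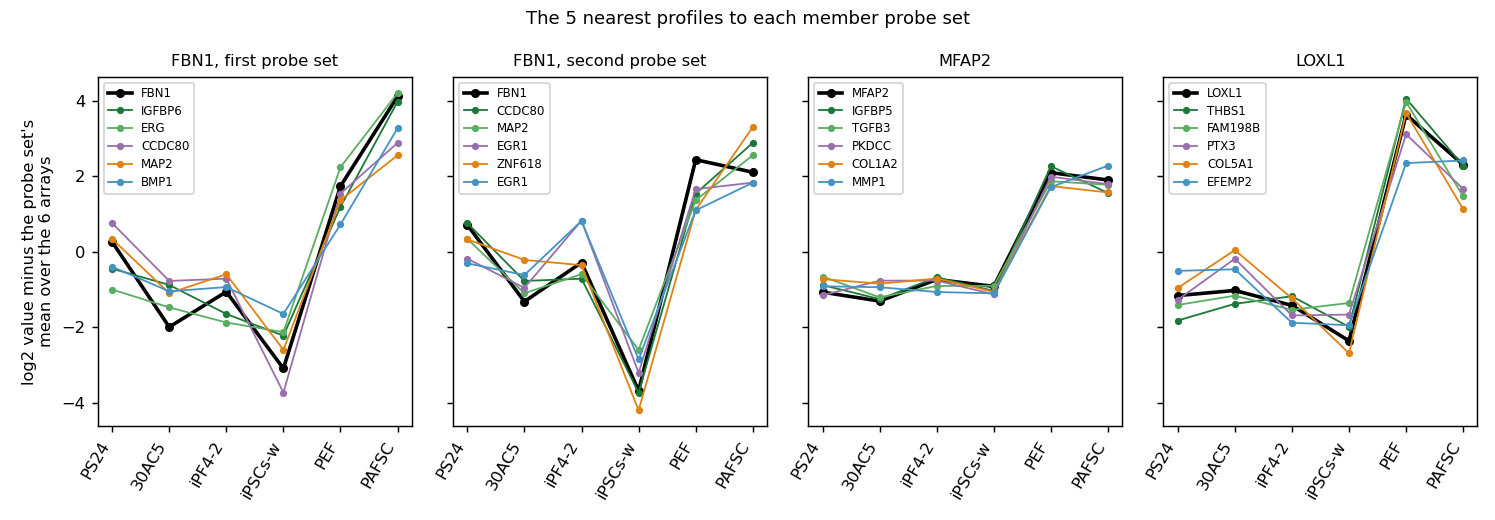
Profiles of each member probe set (black) and its 5 nearest probe sets (colours) over the 6 arrays, in log2 units minus each probe set's mean, with iPS lines left of the somatic samples. The MFAP2 curves lie at root mean square distances of 0.18 to 0.32 log2 units from MFAP2, and those nearest to FBN1 at 0.56 to 0.94.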

How the data were processed

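Per the labels' protocols, biotin-labelled total RNA of the 6 cell samples was run on 1 Pig Genome Array (Affymetrix) each. The deposited table holds log2 values of 24123 probe sets relative to a baseline set by the authors; the log base was taken from the range of the values, and the sources used here name no software, baseline or scaling. The 124 array controls were left out, which left 23999 probe sets, with 64 reporters kept. Symbols came from the platform annotation, and probe sets with more than 1 symbol were left unnamed.

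Limma 3.58.1 in R 4.3.3 (statmod 1.5.0 for the robust fit) was fitted on all 23999 probe sets, two-sided, with Benjamini-Hochberg adjustment and a threshold of 0.05. The iPS against somatic fit set 4 lines against 2 samples, and the marker class fit used 3 classes. Both were also run on simulated data in which each probe set had the same spread on every array. That setting lacks the wider spread of the PAFSC array, and nothing is drawn from it here. The 3 genes and the lists were chosen with earlier results of these data known. Every probe set of the 3 genes and any measured gene of the pathway lists may be named, and the 5 nearest profiles are given per probe set. The fits were repeated without each sample in turn, on the 4 iPS lines only, after quantile normalization or centring on array medians, after removing the 40% of probe sets with the lowest means, with values floored at each array's 25th percentile, and with a trended or a robust eBayes step; profiles were also compared by Pearson correlation. Percentiles within an array and 1 probe set per gene were added after seeing the data. P-values rest on the spread between lines and on the difference between PEF and PAFSC, with no repeat cultures named, and the number of arrays limits the precision.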

Additional observations from a re-analysis of the deposited data

Results flagged for a closer look

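Among the 71 elastic fibre probe sets, 5 had 1 iPS line farther from the other 3 than Dixon's ratio allows at the 95% level, and about 1 in 20 groups is expected to do so by chance. MFAP5 was 0.69 in iPF4-2, with the other lines between -0.50 and -0.39. The third EFEMP2 probe set was 0.62 in 30AC5, above the other lines. The first TGFB2 probe set was 2.72 in iPSCs-w, close to the 3.04 of PEF. The second FN1 probe set was -5.39 in iPSCs-w, with the other lines between 0.23 and 1.00. The third ITGA8 probe set was -0.81 in iPSCs-w, a small step below the other lines. FBN1, MFAP2 and LOXL1 had 0 such lines.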

How the results depend on the processing

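The 4 iPS minus somatic differences stayed negative under all 9 alternatives run for each. The second FBN1 probe set ran from -4.04 to -2.44 and the first from -5.59 to -3.21. MFAP2 was -2.77 after quantile normalization, -2.71 after median centring and -2.14 with values floored at each array's 25th percentile, and LOXL1 was -2.58 with that floor, by construction of the floor for values that low. Leaving out 1 sample at a time gave -3.10 to -2.91 for MFAP2 and -5.13 to -3.80 for LOXL1. The filter on the lowest 40% by mean removed MFAP2 and LOXL1.

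The limma count of other pathway probe sets was 0 of 67 and became 4 of 50 with the lowest 40% left out (DCN, TIMP3 and 2 of EFEMP2; 0.243% of all probe sets kept), 4 of 67 with the floor (TGFB3, TIMP3 and 2 of EFEMP2; 0.292% of all), and 0 to 40 with 1 sample left out: 40 without PEF, where 59.6% of all probe sets were called, 5 without PAFSC and 0 without any 1 iPS line. With 1 probe set per gene the count stayed 0. The filter on the lowest 40% ranks means of values relative to baseline, not abundance. High values in the somatic arrays therefore help a probe set to stay. The median iPS minus somatic difference was -0.68 over the probe sets kept, against -0.34 over all. The 4 of 50 thus carry no support of their own. The floor narrows the spread of low values in the iPS lines by construction, so the 4 of 67 with the floor carry none either. Between the marker classes limma called 0 of the elastic fibre probe sets under every alternative run. The FBN1 differences ran from 0.083 to 2.34 and, on the second probe set, from -0.020 without iPSCs-w to 3.38 without iPF4-2. Of the 5 nearest profiles, 0 to 2 were shared with those by Pearson correlation and 1 to 3 with those without PAFSC.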
